A study of Camelus dromedarius with 10 samples.

Results

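The sensors and transcription factors of the unfolded protein response (UPR) were examined in the supraoptic nucleus (SON) of the dromedary camel under water deprivation. The set holds 10 genes, namely the sensors ERN1, ERN2, EIF2AK3, ATF6 and ATF6B and the factors XBP1, ATF4, ATF3, ATF5 and DDIT3, and its members were chosen by name. A gene was measured when the supplementary tables of the study, as used here, pair its symbol with an Ensembl gene ID of the count table. This held for 9 of the 10 genes, of 22444 IDs in all. The copy of the study's table of all genes used here was shortened, and ATF5, which was not paired with an ID in the tables as used, is not analysed here. The filter on low counts (edgeR's filterByExpr) kept 8 members among 14432 genes tested, and ERN2 did not pass it.

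Male camels aged 4 to 5 years either had free access to water (control, n = 5) or were kept without water for 20 days (WD, n = 5). RNA was taken from the SON of 1 side of each animal, from its rostral portion, and sequenced after depletion of ribosomal RNA. The SON is the hypothalamic nucleus whose magnocellular neurones make vasopressin and oxytocin. The pieces of tissue also hold glia and vessels, so that in these bulk samples fewer cells of a type and less RNA per cell cannot be told apart.

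The UPR is the set of pathways by which a cell answers unfolded protein in the endoplasmic reticulum (ER). IRE1 (the protein of ERN1, with a paralogue from ERN2), PERK (EIF2AK3) and ATF6 (with its paralogue ATF6B) sense it in the ER membrane. IRE1 splices the XBP1 mRNA into the form that encodes an active factor, PERK phosphorylates eIF2alpha so that ATF4 is translated, and ATF6 is cut by proteases to free its own factor. These steps act on proteins and on splicing. The counts per gene measure neither, and they do not separate spliced from unspliced XBP1.

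The study designed qRT-PCR primers for a pair of the members, ERN1 and ATF4. They are printed 5′ to 3′ because these are the members with the smallest p in the RNAseq comparison, and they name the transcripts that the study assayed by a second method. The qRT-PCR values were not analysed here. In the rostral SON, the paper reports by qRT-PCR a rise of ERN1 with WD, whereas ATF4 was among its exceptions there. In the caudal portion it reports a change for both.
ERN1 forward: aatgtcccacttcgtgtcca
ERN1 reverse: caccacaggggaagcatagt
ATF4 forward: ggcatctgtatgagccctga
ATF4 reverse: ctatttggagagcccctggt

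Libraries are named by group and replicate number as CON2, CON3, CON4, CON5 and CON13 for the controls and WD6, WD7, WD8, WD9 and WD15 for the deprived camels. Between 1665098 and 8126641 read pairs were counted per library. A group of 5 gene IDs, not paired with a symbol in the tables as used, took from 27.7% to 76.1% of them. This left 397495 pairs for all other genes in CON13 and 1106575 in WD6, against 2078393 to 5872137 in the other libraries. Levels are given as CPM (counts scaled to a common library size after TMM normalization), on which 1 read pair was worth 1.20 CPM in CON13, 0.475 CPM in WD6 and at most 0.237 CPM elsewhere. Each tested member had its fewest counts in CON13, apart from ATF3, which had its fewest in WD6. CPM is not divided by gene length, so levels are compared between libraries and not between genes.

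Of the 8 members tested, 6 had a higher and 2 a lower fitted level in WD camels, and none passed the threshold (edgeR's quasi-likelihood test, padj of at most 0.05). The same fit called 72 genes of all those tested, or 0.499%. At an unadjusted p under 0.05 the fit had 2 members, ERN1 and ATF4, beside 9.31% of all genes tested in either direction and 4.91% with WD higher. DESeq2's Wald test called ERN1 and ATF4 at the same threshold, beside 1.27% of the 16447 genes that it gave a padj. These calls by DESeq2 were known when the members were chosen, so the count of 2 is a description and not independent evidence about the set. An edgeR fit with depth group (the 5 shallower against the 5 deeper libraries) as a covariate also called these 2, beside 1.55% of all genes. The median log2 fold change (LFC) of the 8 members was 0.31, and that of all genes tested was 0.017. An LFC above 0 was found for 51.9% of all genes.

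**Figure D1:**
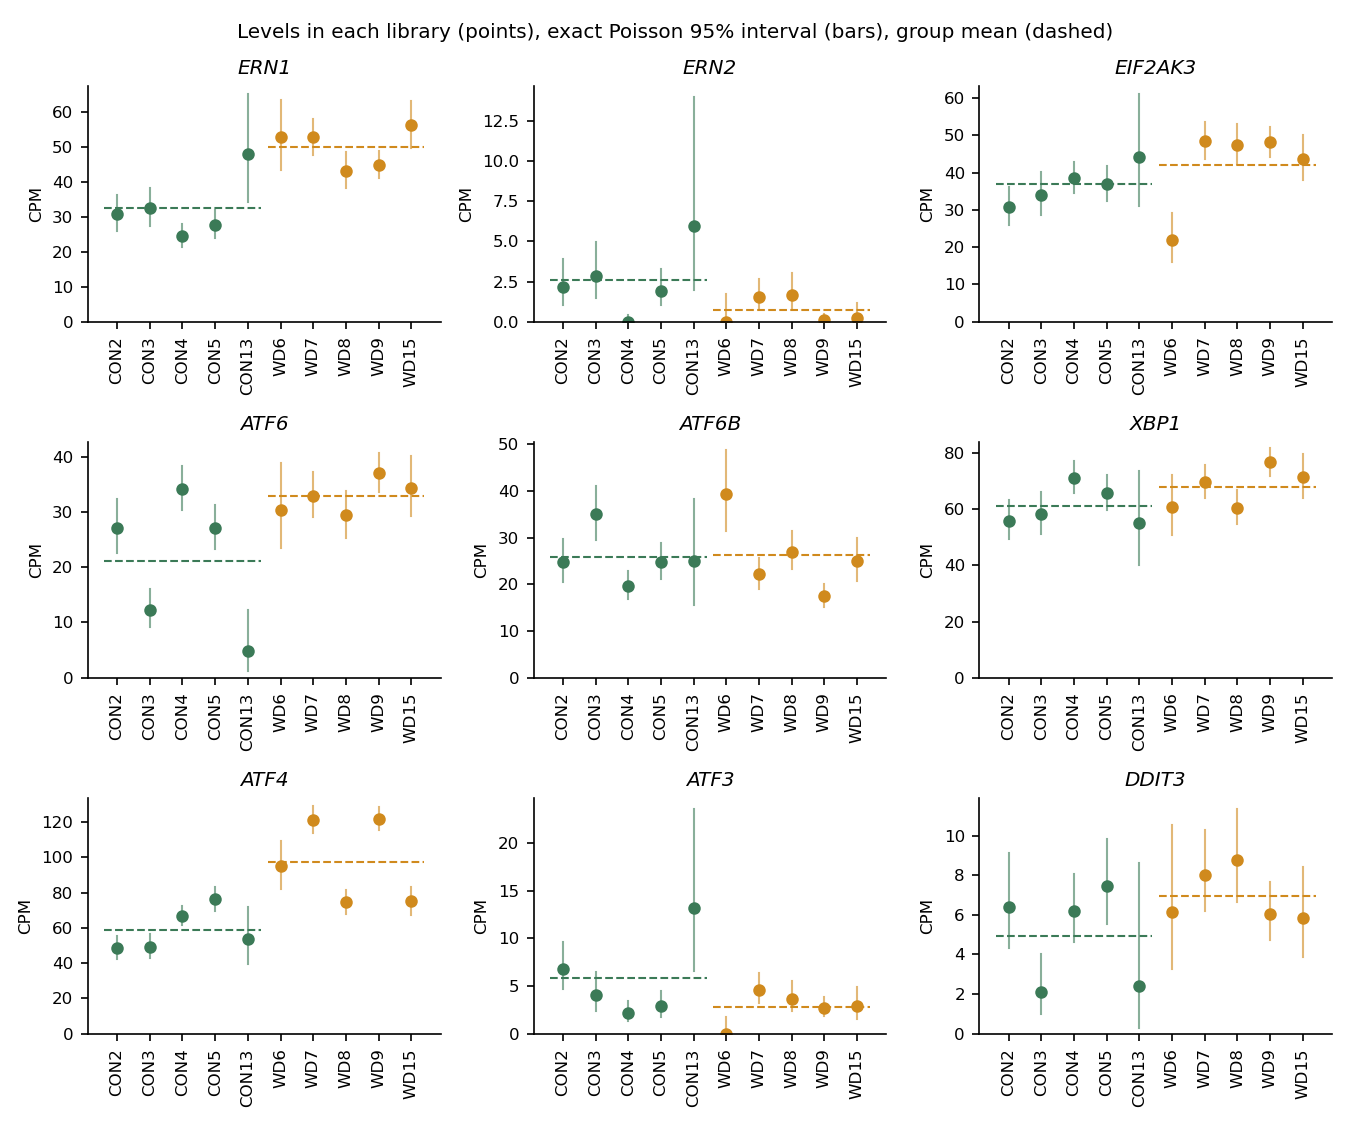
CPM of the 9 measured members (y axis, linear from 0) in each library (x axis, controls in green and WD in orange), with exact Poisson 95% intervals as bars and group means as dashed lines. All 5 WD points of ERN1, ATF4, ATF6 and DDIT3 lie above the control mean of the gene. ATF6 is low in CON3 and CON13, and the interval is widest in CON13 for each member but ATF6, where it is widest in WD6.

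ERN1 encodes IRE1alpha, the ER membrane kinase and ribonuclease that splices XBP1. In CON2, CON3, CON4, CON5 and CON13 its level was 30.7, 32.4, 24.4, 27.7 and 47.8 CPM. In WD6, WD7, WD8, WD9 and WD15 it was 52.7, 52.7, 43.2, 44.7 and 56.0 CPM. Each WD library lay above 4 of the 5 controls, and the groups overlapped through CON13 alone, where the gene rests on 40 counts (exact Poisson 95% interval 34.2 to 65.1 CPM). The means were 32.6 ± 9.03 CPM in control and 49.8 ± 5.61 CPM in WD camels (SD, n = 5 each). The LFC was 0.66 ± 0.19 (SE), a 1.58-fold difference with a 95% interval of 1.20 to 2.09 (edgeR, unadjusted p = 0.0027, padj = 0.194). DESeq2 gave an LFC of 0.68 ± 0.183 (SE, padj = 0.0217), and the edgeR fit that included depth group gave 0.74 ± 0.16 (SE, padj = 0.0223).

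The difference in ERN1 had the same sign at either depth. WD libraries stood above controls by 0.58 on the log2 CPM scale among the 5 shallower libraries and by 0.84 among the 5 deeper ones. When 1 library at a time was left out, the LFC stayed between 0.56 (without CON4) and 0.78 (without CON13), and padj did not pass the threshold in any of these fits. Within the controls, ERN1 was ordered exactly against depth, being highest in the shallowest library and lowest in the deepest (Spearman's rho = −1, as a description of 5 libraries).

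ERN2, which encodes the IRE1beta known from gut epithelium, was barely detected, with 65 counts in all. The controls CON2, CON3, CON4, CON5 and CON13 had 10, 12, 0, 13 and 5 counts, and WD6, WD7, WD8, WD9 and WD15 had 0, 12, 11, 1 and 1. Counts of 10 or more thus occurred in 3 control and 2 WD libraries, and the groups overlapped. The 0 counts allow up to 0.344 CPM in CON4 and 1.42 CPM in WD6 (3 counts, for counting error only). DESeq2 gave an LFC of −1.67 ± 1.05 (SE, padj = 0.606), and edgeR without the filter gave −1.51 ± 0.983 (SE, padj = 0.717), so that no difference was detectable at this depth.

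EIF2AK3 encodes PERK, the kinase that phosphorylates eIF2alpha under ER stress. It was at 30.7, 34.1, 38.6, 36.9 and 44.2 CPM in CON2, CON3, CON4, CON5 and CON13. In WD6, WD7, WD8, WD9 and WD15 it was at 21.8, 48.5, 47.5, 48.1 and 43.8 CPM. WD6 was the lowest of all 10 libraries for this gene, with 46 counts and an interval of 16.0 to 29.1 CPM, while WD7, WD8 and WD9 were above every control. The LFC was 0.22 ± 0.208 (SE, 95% interval −0.22 to 0.66, edgeR padj = 0.809), and it was 0.37 without WD6 and 0.14 without CON2. On the log2 CPM scale the difference was −0.22 among the shallower libraries, which include WD6, and 0.35 among the deeper ones.

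The overlap of the groups came from CON13 for ERN1 and from both CON13 and WD6 for EIF2AK3. With all libraries, none of the 8 tested members had groups that did not overlap in CPM, beside 2.62% of all genes in either direction and 1.34% with WD higher. Without CON13 and WD6, ERN1 and EIF2AK3 were the 2 members whose groups did not overlap, with WD higher, beside 7.65% of all genes in either direction and 3.68% with WD higher. EIF2AK3 then had a control maximum of 38.6 CPM and ERN1 one of 32.4 CPM. The padj of EIF2AK3 in the fit without these libraries was 0.287 (edgeR).

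ATF6 encodes a membrane-bound transcription factor that moves to the Golgi under ER stress and is cut there. It was at 27.1, 12.3, 34.2, 27.1 and 4.78 CPM in CON2, CON3, CON4, CON5 and CON13. It was at 30.4, 32.9, 29.3, 37.0 and 34.4 CPM in WD6, WD7, WD8, WD9 and WD15. The WD libraries were close together, with a coefficient of variation of 9.38%, while the controls spread over 57.4%. CON13 rested on 4 counts, but CON3 had 52 counts and an interval of 9.19 to 16.1 CPM, below the intervals of CON2, CON4 and CON5. The LFC was 0.53 ± 0.292 (SE, 95% interval −0.08 to 1.15, edgeR padj = 0.618). The difference on the log2 CPM scale was 1.46 among the shallower libraries, which include CON3 and CON13, and 0.11 among the deeper ones.

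ATF6B, the paralogue of ATF6 that undergoes the same cleavage, had 24.8, 35.0, 19.7, 24.7 and 25.1 CPM in the controls, in the same order of libraries. In the WD libraries it had 39.4, 22.2, 27.0, 17.5 and 25.0 CPM. The groups overlapped almost fully, with means of 25.9 ± 5.57 and 26.2 ± 8.19 CPM (SD, n = 5 each). The LFC was −0.01 ± 0.228 (SE, 95% interval −0.49 to 0.47, edgeR padj = 0.995), so that folds from 0.714 to 1.39 lie within the interval. Its sign turned in 8 of 21 alternative settings.

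**Figure D2:**
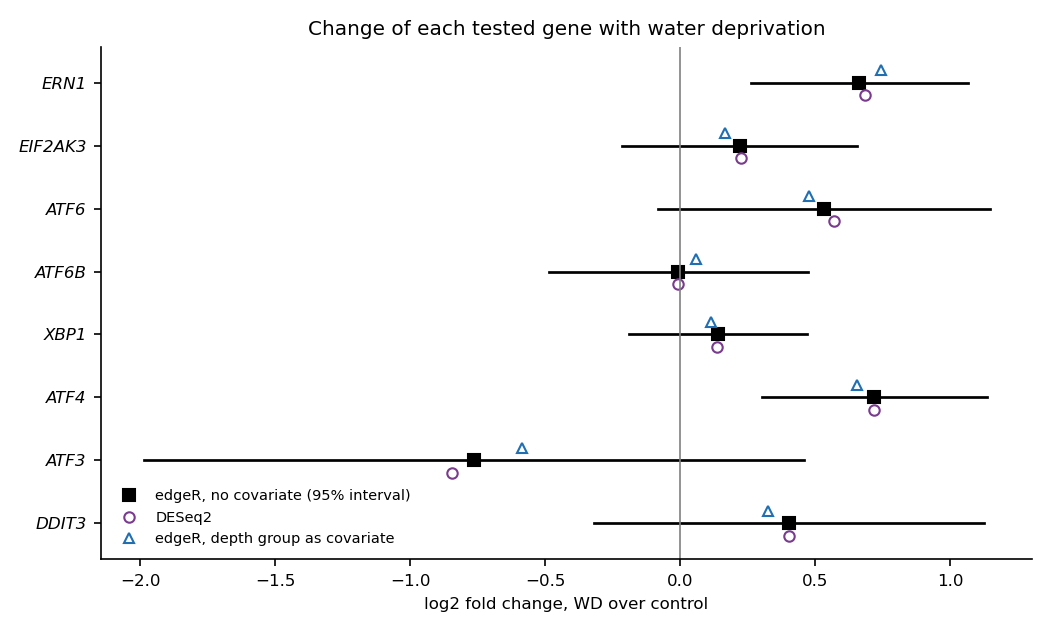
LFC of WD over control (x axis, log2) for the 8 tested members (y axis), as squares with 95% intervals for edgeR without a covariate, circles for DESeq2 and triangles for edgeR when depth group was included. The edgeR intervals of ERN1 and ATF4 lie above 0, those of the other 6 members include 0, and that of ATF3 is the widest.

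Ratios of ERN1 to the other sensors within a library do not depend on how libraries are scaled. They were compared by two-sided exact permutation tests over all assignments of 5 and 5 libraries, with Benjamini-Hochberg values over the 3 ratios. On the log2 scale the ratio of ERN1 to ATF6B was 0.31, −0.11, 0.31, 0.16 and 0.91 in the controls and 0.42, 1.24, 0.67, 1.35 and 1.16 in the WD libraries. The groups overlapped through CON13, the control with the highest ratio. The mean was 0.32 ± 0.375 in control and 0.97 ± 0.40 in WD libraries (SD, n = 5 each), which is a 1.57-fold difference (exact p = 0.0397, BH = 0.119). It failed the correction over the 3 ratios. With 1 library left out, the exact permutation p ranged from 0.0159 (without CON13) to 0.0714, and it was above 0.05 without CON2, CON3, CON4, CON5, WD7, WD9 or WD15.

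The ratio of ERN1 to EIF2AK3 was −0.21 ± 0.32 in control and 0.30 ± 0.574 in WD libraries (SD, n = 5 each, exact p = 0.119, BH = 0.179). WD6 stood highest at 1.26, next to WD15 at 0.36, and 3 WD libraries lay at or below 0.12. Without WD6 the difference of WD minus control changed from 0.51 to 0.26. ERN1 over ATF6 was 0.86 ± 1.46 in control and 0.60 ± 0.20 in WD libraries (SD, exact p = 0.794, BH = 0.794). This ratio turned on CON13, where it reached 3.17. Without that library the difference of WD minus control changed from −0.26 to 0.32. None of the 3 ratios passed the correction.

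**Figure D3:**
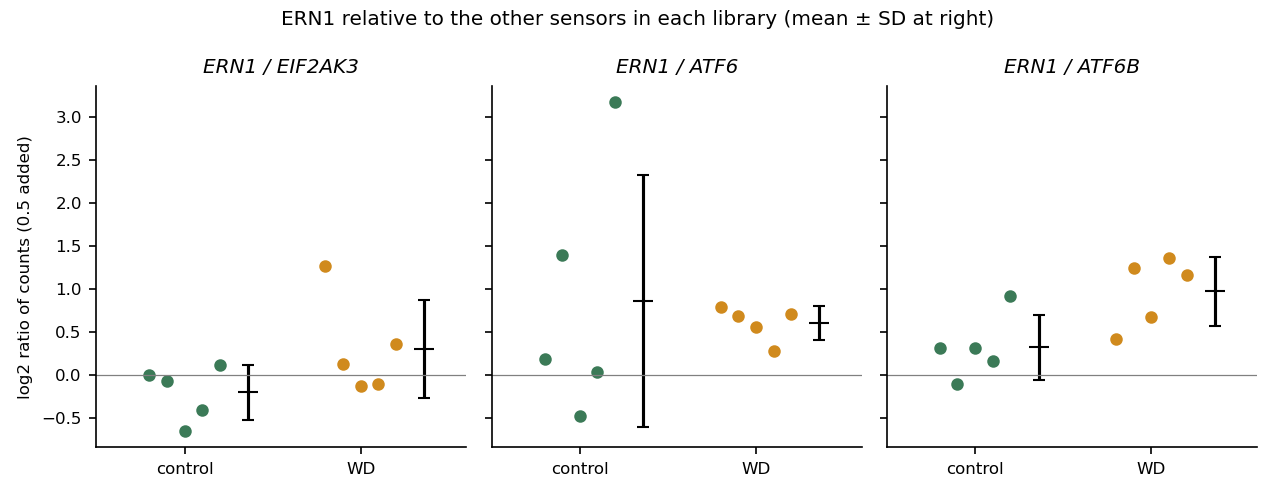
Log2 ratio of ERN1 counts to those of EIF2AK3, ATF6 and ATF6B (y axis, 0.5 added to each count) in the control (green) and WD (orange) libraries, each point 1 library, with mean ± SD in black. The ERN1 to ATF6B ratio averages 0.32 in control and 0.97 in WD libraries, and a single control point at 3.17 (CON13) stretches the ERN1 to ATF6 panel.

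Among the transcription factors, ATF4 had the largest positive LFC in the edgeR fit without a covariate. ATF4 is the activator whose translation depends on phosphorylated eIF2alpha and which drives genes of amino acid supply and of redox balance. It was at 48.7, 49.2, 66.7, 76.1 and 53.8 CPM in CON2, CON3, CON4, CON5 and CON13. In WD6, WD7, WD8, WD9 and WD15 it was at 94.9, 121, 74.5, 122 and 75.0 CPM. WD6, WD7 and WD9 lay above all controls, whereas WD8 and WD15 were just below CON5, the highest control. The means were 58.9 ± 12.1 and 97.5 ± 23.4 CPM (SD, n = 5 each), and the LFC was 0.72 ± 0.198 (SE), a 1.65-fold difference with a 95% interval of 1.23 to 2.20 (edgeR, unadjusted p = 0.00197, padj = 0.172).

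The LFC of ATF4 was 0.72 ± 0.208 with DESeq2 (SE, padj = 0.0445), 0.66 ± 0.159 with depth group as a covariate in edgeR (SE, padj = 0.0424) and 0.86 ± 0.152 with the RNA integrity number as a covariate in edgeR (SE, padj = 0.0106). This last fit called 104 genes in all, or 0.721%, and ATF4 was the only member among them. Leaving out 1 library at a time gave between 0.61 (without WD7) and 0.84 (without CON5), with no padj past the threshold in these edgeR fits. WD libraries stood higher by 0.74 among the shallower and by 0.53 among the deeper libraries on the log2 CPM scale.

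XBP1, the factor made active by IRE1 splicing and a driver of ER folding and degradation genes, varied little between libraries. Its level was 55.9, 58.2, 71.1, 65.7 and 55.0 CPM in the controls, in the order given for ATF4, and 60.7, 69.5, 60.5, 76.6 and 71.5 CPM in the WD libraries. Its coefficient of variation was 11.4% in control and 10.3% in WD libraries, where the median over all genes tested was 28.5% and 27.9%. The groups overlapped over most of their range. The LFC was 0.14 ± 0.156 (SE, edgeR padj = 0.848), and the 95% interval of the fold ran from 0.878 to 1.39. The LFC was 0.085 without CON2, 0.086 without WD9 and 0.31 with library totals in place of TMM. The difference was 0.23 among the shallower and 0.00 among the deeper libraries (log2 CPM).

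ATF3, a stress-induced repressor and activator of the ATF family, was low, with 204 counts in all. It was at 6.83, 4.02, 2.18, 2.93 and 13.2 CPM in the controls and at 0, 4.59, 3.69, 2.68 and 2.92 CPM in the WD libraries, in the same order. The highest value was in CON13, from 11 counts, and the lowest in WD6, where a count of 0 allows up to 1.42 CPM. The other 8 libraries lay between 2.18 and 6.83 CPM, with both groups mixed. The LFC was −0.76 ± 0.581 (SE, 95% interval −1.99 to 0.46, edgeR padj = 0.743), and it was −0.41 without CON13. On the log2 CPM scale the difference of WD minus control was −3.83 among the shallower libraries, which include CON13 and WD6, and 0.48 among the deeper ones. The 0 count of WD6 enters the shallower value through the prior count of 0.5, so its size is not a measured level.

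DDIT3 encodes CHOP, the factor that ATF4 induces and that promotes cell death under lasting ER stress. It was at 6.40, 2.13, 6.20, 7.47 and 2.39 CPM in the controls and at 6.17, 8.04, 8.76, 6.05 and 5.83 CPM in the WD libraries, from 377 counts in all. CON3 and CON13, with 9 and 2 counts, were the low libraries, as they were for ATF6. The other 3 controls fell within the range of the WD libraries. The LFC was 0.40 ± 0.344 (SE, 95% interval −0.32 to 1.13, edgeR padj = 0.785). It was 0.17 without CON3. On the log2 CPM scale the difference was 0.89 among the shallower libraries, which include CON3 and CON13, and 0.14 among the deeper ones.

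Depth moved with the level of some members, and its part in their values was not tested beyond the covariate. Spearman's rho of log2 CPM with the counts outside the 5 dominant IDs, over the 10 libraries, was −0.855 for ATF6B (permutation p = 0.00266, BH over 8 members = 0.0213). It was 0.782 for XBP1 (permutation p = 0.0112, BH = 0.0449) and 0.685 for ATF6 (permutation p = 0.0355, BH = 0.0946). Pearson's r was −0.541 (BH = 0.220), 0.739 (BH = 0.0536) and 0.811 (BH = 0.0536) for these genes by permutation, and −0.864, 0.765 and 0.639 without CON13 and WD6. For ATF6B rho was −0.9 in either group. ERN1 and ATF4 had rho of −0.321 (permutation p = 0.368, BH = 0.368) and 0.527 (permutation p = 0.124, BH = 0.198), opposite in sign to each other. Without CON13 and WD6, Pearson's r of ATF4 went from 0.471 to 0.785, and that of ERN1 from −0.321 to 0.029. Within the controls and within the WD libraries, rho was −1 and −0.6 for ERN1, and 0.5 and 0.6 for ATF4.

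Along the known links of the pathway, 5 pairs of members were correlated over the 10 libraries on log2 CPM, with permutation p and BH over the 5 pairs. ATF6 and XBP1, which ATF6 is known to induce, gave Pearson's r = 0.681 (permutation p = 0.00881, BH = 0.0441) and rho = 0.903 (permutation p = 0.00088, BH = 0.0044). Without CON13 and CON3, the libraries farthest on ATF6, r was 0.862. In the WD libraries XBP1 followed the order of ATF6 exactly (rho = 1.0), and in the controls rho was 0.7. With the group means subtracted r was 0.576 (permutation p = 0.0675), and it was 0.624 among the shallower and 0.839 among the deeper libraries. Both genes also followed depth, as given above, and its part in their relation was not tested.

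**Figure D4:**
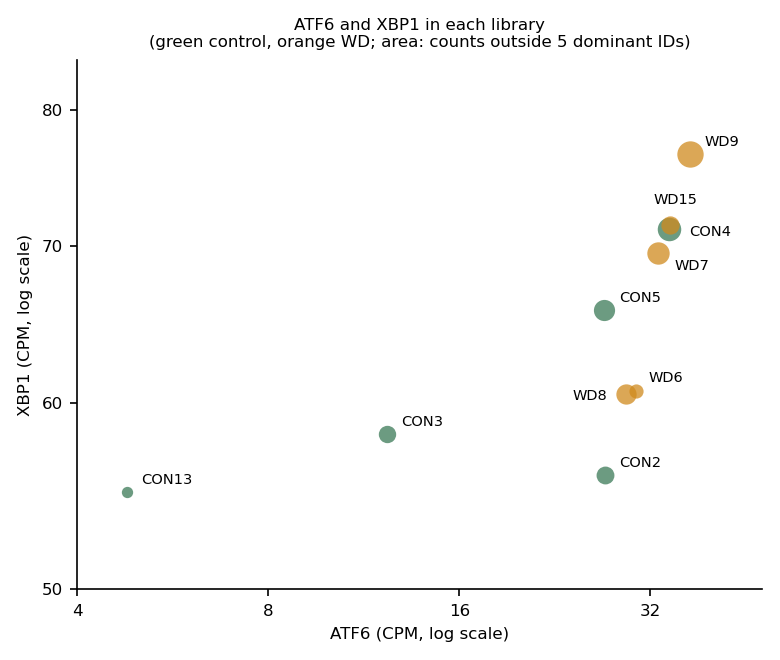
XBP1 against ATF6 in each library (both axes in CPM on log scales), controls in green and WD in orange, with the area of a point in step with the counts outside the 5 dominant IDs. XBP1 is higher where ATF6 is higher (rho = 0.903), the deepest library (WD9) is at the top right and the shallowest (CON13) at the bottom left.

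The other 4 links gave no correlation that passed. ERN1 and XBP1 had r = 0.0898 (permutation p = 0.797, BH = 0.797) and rho = 0.164, and within the controls r was −0.806. EIF2AK3 and ATF4 had r = 0.245 (permutation p = 0.510, BH = 0.638) and rho = 0.467, and r was 0.684 without CON2 and WD6. ATF4 and DDIT3 had r = 0.584 (permutation p = 0.0747, BH = 0.187) and rho = 0.261, with r = −0.0764 within the WD libraries. ATF4 and ATF3 had r = −0.405 (permutation p = 0.276, BH = 0.459) and rho = −0.515. The r of this last pair reached −0.764 without WD7 and WD9, and it was −0.859 among the shallower but 0.466 among the deeper libraries.

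Other genes of these pathways were taken from 6 lists, with 48 genes listed, 43 paired with an ID and 39 tested. The threshold was passed by 2 of the 39 (edgeR), both higher in WD camels, beside 0.27% of all genes called higher. Both belong to the list of bZIP factors that can pair with ATF4, ATF3 or DDIT3, or bind like them (C/EBP, CREB/ATF, AP-1, MAF and NRF proteins). CREM, a cAMP-responsive member of the CREB family, rose from 5.66 ± 2.63 to 21.4 ± 4.31 CPM (SD, n = 5 each), an LFC of 1.77 ± 0.266 (SE, edgeR padj = 0.00313). FOS, the AP-1 subunit and marker of neuronal activity, rose from 14.997 ± 2.03 to 41.2 ± 11.0 CPM (SD), an LFC of 1.48 ± 0.217 (SE, edgeR padj = 0.00313). Of the 18 tested genes of this list 16 had an LFC above 0, with a median of 0.33 beside 0.017 for all genes. The lists were written with earlier results of these data known, so these counts are descriptions and not independent evidence about the lists.

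The lists nearest to the sensors had no gene past the threshold. The other eIF2alpha kinases (EIF2AK1, EIF2AK2 and EIF2AK4), which share the target of PERK, had a median LFC of 0.12, and the farthest from 0 was EIF2AK2, the kinase activated by double-stranded RNA, at 0.14 ± 0.211 (SE, edgeR padj = 0.903). The branch from IRE1 to JNK (MAP3K5 and the JNKs MAPK8, MAPK9 and MAPK10) had a median of −0.07 over its 4 kinases. MAPK10 (JNK3) was at −0.40 ± 0.267 (SE, edgeR padj = 0.694), at −0.17 without CON4 and at −0.58 without WD9. The 6 tested proteases and cofactors of ATF6 had a median of 0.07, with NFYB, a subunit of the CCAAT-binding factor NF-Y, at 0.22 ± 0.368 (SE, edgeR padj = 0.915).

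The CREB3 family holds factors that are freed from the ER membrane as ATF6 is. Its 3 tested genes had LFC below 0, with a median of −0.27 and CREB3L4 at −0.53 ± 0.279 (SE, edgeR padj = 0.599). Tribbles and caspases, which include targets and effectors of CHOP, had a median of 0.47 over 5 tested genes, 3 above and 2 below 0. The farthest from 0 was CASP4, an inflammatory caspase, at 0.60 ± 0.599 (SE, edgeR padj = 0.825). It was at 0.30 without WD8, 0.37 without WD15 and 0.83 without WD6. TRIB3, a known target of CHOP, had 76 counts in all and was not tested.

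**Figure D5:**
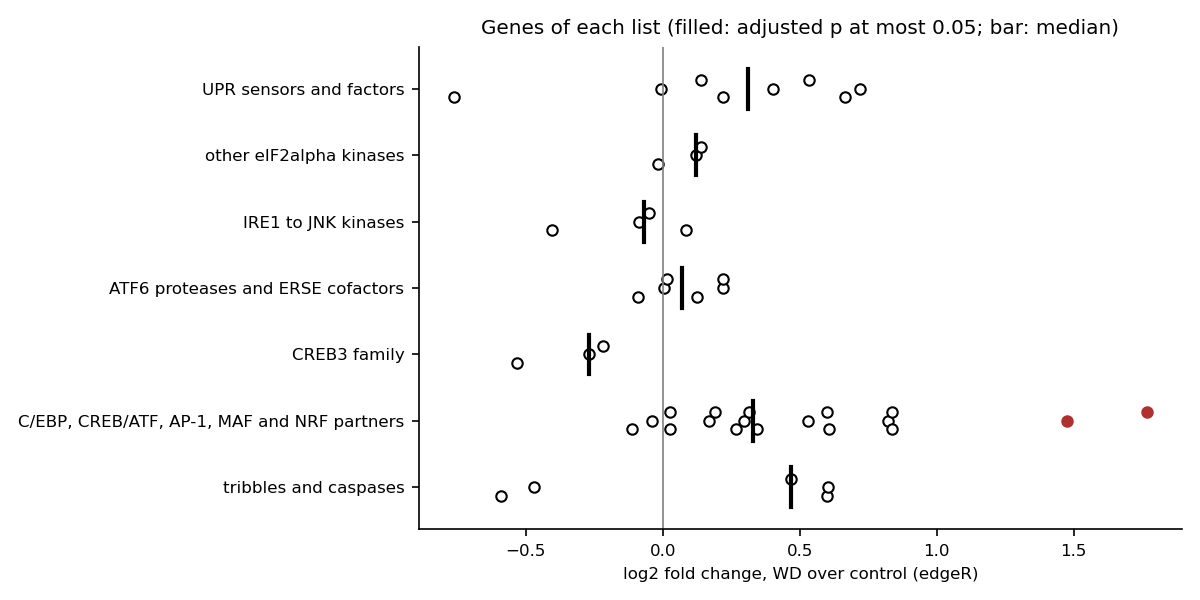
LFC of WD over control (x axis, edgeR, log2) of the 8 tested members (top line) and of the tested genes of the 6 pathway lists (y axis), each point 1 gene, filled where padj is at most 0.05, with the median as a bar. The filled points are CREM at 1.77 and FOS at 1.48, the 3 CREB3 family genes lie below 0, and the medians of the first 4 lists under the members lie between −0.27 and 0.12.

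As a description with no test, the genes most like ERN1, ATF4 and XBP1 over the 10 libraries were sought among 1468 transcription factors, catalytic receptors and enzymes with a mean of at least 50 counts. Pearson's r of log2 CPM with ERN1 was highest for SIK1, a salt-inducible kinase, at 0.870, then for CNDP2, a dipeptidase, at 0.858 and for FOSL2, an AP-1 subunit, at 0.841. For ATF4 it was 0.944 for DAPK1, a death-associated kinase, and 0.913 for PCSK1, the prohormone convertase. For XBP1 it was highest for PRKACB, a catalytic subunit of protein kinase A, at 0.927, then for ZNF569 at 0.894 and TGFBR1 at 0.883. Of these 8 genes SIK1 and PCSK1 passed the threshold, with LFC of 1.27 (padj = 0.0476) and 2.02 (padj = 2.487e-04) by edgeR. These libraries share groups and depth, which enter every r.

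The cell types of the tissue were read from marker genes. The magnocellular lineage factors SIM1, OTP and ARNT2 were detected in every library, with a summed level of 379 to 530 CPM in control and 391 to 541 CPM in WD libraries. ARNT2 makes up most of this sum, at 366 ± 39.2 and 359 ± 60.1 CPM (SD, n = 5 each), while OTP was at 39.5 ± 12.0 and 25.7 ± 7.24 CPM (SD), with an LFC of −0.58 (edgeR, unadjusted p = 0.0255, padj = 0.454). All 3 of these markers and all 4 of the oligodendrocyte lineage had LFC below 0. AVP, OXT, POU3F2 and 4 astrocyte markers were not paired with an ID in the tables as used, 1 of them shortened, and were not analysed here. Oligodendrocyte lineage markers summed to 88.1 to 168 and 75.4 to 121 CPM, and markers of other neurones to 24.7 to 40.6 and 19.9 to 41.2 CPM. The 4 microglial markers had LFC from 0.62 to 0.98, with the smallest p for IRF8 (edgeR, unadjusted p = 0.00458, padj = 0.229), and sums of 176 to 288 CPM in control and 208 to 646 CPM in WD libraries. Of the 4 endothelial markers 3 had LFC above 0, among them FLT1 at 0.62 and KDR at 0.64 (edgeR, unadjusted p = 0.0130 and 0.0179), with sums of 105 to 176 and 130 to 257 CPM. CHAT and VIP, markers of other neurones, were too low to be tested, and none of the 18 paired markers tested passed the threshold (edgeR). The part of cell composition in the levels of ERN1 and ATF4 was not tested.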

How the data were processed

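RNAseq of the SON compared 5 WD with 5 control animals. The authors aligned reads to the assembly Camdro2 with STAR, counted pairs per gene with FeatureCounts and deposited whole-number counts without normalization. Their second table, of counts scaled by DESeq2 size factors, was not used. The annotation release and the strand setting for counting are not given in the sources used here, so overlapping genes are uncertain. No member had counts within 1% of those of another ID.

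WD was compared with control by edgeR's quasi-likelihood F test (edgeR 4.0.16, R 4.3.3, robust, TMM, filterByExpr by group), adjusted after Benjamini and Hochberg (BH) over 14432 genes, with a threshold of 0.05. SE is the size of the LFC divided by the square root of F. DESeq2 1.42.0 was an alternative. Log2 CPM has a prior count of 0.5. Figures and permutation tests used Python 3.11.15, scipy 1.17.1 and matplotlib 3.10.9. The edgeR step was tested on simulated data.

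Named genes are all members, each gene of a pathway list past the threshold or else its largest LFC in size, and the 3 genes most like ERN1, ATF4 and XBP1, of which 1 is not reported here. List symbols came from the complete supplementary sheets of transcription factors, catalytic receptors and enzymes. TRIB3 was named after its values were seen. Members and lists were chosen with earlier results of these data known, among them that ERN1 and ATF4 were called by DESeq2. Alternatives were other scalings and filters, covariates, and libraries left out. Correlations within depth groups were added after seeing the data.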

Additional observations from a re-analysis of the deposited data

Results flagged for a closer look

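In 16 groups of 5 libraries (8 members, control and WD), the highest and lowest library were compared with the rest. Dixon's ratio was taken on log2 CPM, at its 95% critical value of 0.71. Chance alone flags about 1 group in 20. The ratio was passed in 2 groups, both by WD6. EIF2AK3 was at 21.8 CPM in WD6, with a gap to the next WD library of 0.872 of the log2 range and 46 counts. ATF3 was at 0.0 CPM in WD6, with a gap of 0.868 of the log2 range and 0 counts, which allows up to 1.42 CPM. The log2 value of a 0 count is set by the prior count of 0.5, so this gap is not a measured distance. WD6 has the fewest counts outside the 5 dominant IDs among the WD libraries, 1106575.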

How the results depend on the processing

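No paired analysis was possible because control and WD libraries share no replicate number. ERN1, EIF2AK3, ATF6, XBP1, ATF4 and DDIT3 kept an LFC above 0, and ATF3 one below 0, in each alternative fit that kept them. ATF6, ATF3 and DDIT3 were not kept by the filter of at least 10 counts in every library. Against 0 members called in edgeR without a covariate, DESeq2 called 2, RIN as a covariate 1 and depth group as a covariate 2. Calls over all genes were 72, then 209 with DESeq2, 10 with library totals, 104 with RIN, 224 with depth group and 40 (without CON3) to 102 (without WD6) with 1 library left out. Library totals shifted the median LFC of all genes from 0.017 to 0.16. The 2 calls in the pathway lists became 0 with library totals, where the LFC of CREM was 1.88 and that of FOS 1.62, and 1 with at least 10 counts in every library, a filter that left CREM untested. MAPK10 was at −0.20 with RIN and −0.19 with library totals, but at −0.56 with depth group. CASP4 was at 0.39 with RIN, and at 0.83 without WD6. The LFC of ATF6B was 0.040 with library totals, 0.0082 with no filter, 0.00050 with at least 10 counts and 0.059 with depth group. With 1 library, or CON13 and WD6 together, left out, ATF6B ranged from −0.20 to 0.12, EIF2AK2 from −0.027 to 0.20 and NFYB from −0.0099 to 0.42. The log2 difference of ERN1 over ATF6 ranged from −0.59 to 0.32, and that of ERN1 over ATF6B from 0.55 to 0.94, with an exact permutation p of up to 0.0714.

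Pearson's r of ERN1 with XBP1 was −0.806 within controls and −0.512 with group means subtracted. That of ATF6 with XBP1 was 0.687 within controls, 0.576 with group means subtracted, 0.624 in the shallower and 0.839 in the deeper libraries. ATF4 with DDIT3 gave −0.0764 within WD and −0.0955 in the deeper libraries. ATF4 with ATF3 gave −0.764 without WD7 and WD9, 0.0259 within WD and 0.466 in the deeper libraries. EIF2AK3 with ATF4 gave −0.447 in the shallower libraries. The causes of these changes were not tested. Depth limits ERN2, ATF3 and DDIT3 most, with 65, 204 and 377 counts.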
